A study of Homo sapiens with 12 samples.

Results

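Galectins are lectins that bind beta-galactosides on glycoproteins and glycolipids. 4 galectin genes and 1 gene for a galectin ligand were followed here: LGALS9, LGALS1, LGALS3 and LGALS8, which encode galectin-9, galectin-1, galectin-3 and galectin-8, and LGALS3BP, which encodes the secreted galectin-3-binding protein. They were taken from the gene table by symbol, which gave 5 of 60099 genes, and the 16 transcripts listed for LGALS9 were taken from the 201521 in the transcript table. The cells were Cal27 and HN30, established lines of head and neck squamous cell carcinoma (HNSCC), left untreated or given 20 or 200 ng/ml of interferon alpha (IFNα) for 24 h, and their total RNA was sequenced after removal of ribosomal RNA. Letters A and D were the controls, B and E received 20 ng/ml and C and F received 200 ng/ml, with 2 replicates per letter. Line set A-C held the first 3 letters and line set D-F the others, and which set is which line is not stated in the sources used here. No source used here says whether replicates were separate cultures, so p-values measure the spread between these samples, which may be technical.

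Galectins lack a classical signal peptide and act outside the cell, where they bridge glycans on receptors, and inside it, where galectin-3 and galectin-8 mark damaged vesicles. Galectin-1 and galectin-3 carry a single kind of carbohydrate recognition domain, whereas galectin-8 and galectin-9 carry a different one at each end, joined by a linker. Galectin-9 is a ligand of the checkpoint receptor TIM-3 on lymphocytes. Interferons bind a cell surface receptor and raise genes whose promoters hold the interferon-stimulated response element (ISRE).

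All 12 libraries held between 10517448 and 16056734 estimated counts. The profiles correlated at r = 0.947 to 0.981 between samples of a line set (30 pairs) and at 0.749 to 0.785 between line sets (36 pairs), over 13034 genes. All 11 interferon-stimulated genes listed as a check of the labels rose at 200 ng/ml, with a median log2 fold change of 4.57. The summed level of 8 squamous epithelial markers was 2088 to 2673 TPM (a level scaled for transcript length and library depth) in A-C and 886 to 1142 TPM in D-F, where KRT14 was between 0.0 and 0.254 TPM. PTPRC, the pan-leukocyte marker, had at most 2 counts in a library, and the 7 leukocyte markers summed to 3.41 to 7.14 TPM. Only 3 of these 7 stayed below 1 TPM in every library, and the highest value of a single one was 5.5 TPM. The 6 fibroblast markers summed to 4.78 to 14.0 TPM. Of the 4 endothelial markers only CDH5 passed 1 TPM in any library, at 15.2 to 21.7 TPM in A-C.

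The promoter sequences are shown because LGALS9 and LGALS3BP, the members that rose with IFNα, were also the only ones of 4 with a window in the table whose letters held the ISRE core, and because a single base separated LGALS9 from its near copies there. The windows were those of RefSeq (GRCh38.p14), from 250 bases before to 50 bases after the start of the gene. The ISRE core was searched as GAAA, any 2 bases and GAAA again, and the gamma-activated site (GAS) core as TTCNNNGAA, both on either strand, and the patterns may overlap because both hold GAA. Capitals mark the ISRE core in LGALS9 and LGALS3BP and the letters at the same place in LGALS9B and LGALS9C. All 4 are written 5′ to 3′ on the strand of the gene.
LGALS9, chr17:27631169-27631198, plus strand: gttgctttggTTTCTATTTCtttgttaagt
LGALS9B, chr17:20467536-20467565, minus strand: gttgctttggTTTCTATTACtttgttaagt
LGALS9C, chr17:18476758-18476787, plus strand: gttgctttggTTTCTATTACtttgttaagt
LGALS3BP, chr17:78979962-78979991, minus strand: gtggtttctgGAAATCGAAAgtagactctt
In LGALS9 the core lay on the opposite strand, 9 bases before the RefSeq start. By the annotation it lay inside the first exon of LGALS9-201, LGALS9-202, LGALS9-203 and LGALS9-212. In LGALS3BP it lay on the gene's own strand, 58 bases before the start. LGALS9B and LGALS9C each differed from LGALS9 by T9A, counted from the first capital, and by 4 bases over the 60 compared. LGALS1 had no entry, and the windows of LGALS3 and LGALS8 held neither pattern. Of all 35116 windows, 3.57% held the ISRE core and 7.66% the GAS core. A match to these letters is a description and not a measured binding site.

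LGALS9 encodes galectin-9 and lies on chromosome 17, plus strand, from 27629798 to 27649560 (GRCh38). It was the least abundant of the 5 genes in every control library, at 5.18 and 7.02 TPM in A and 4.21 and 2.35 TPM in D. At 20 ng/ml it stood at 57.0 and 47.9 TPM in B and at 72.6 and 77.2 TPM in E. At 200 ng/ml it stood at 72.9 and 86.3 TPM in C and at 123 and 89.8 TPM in F. In such bulk samples, more RNA per cell and more cells that express a gene cannot be told apart. No treated library overlapped a control library, and within each line set the 200 ng/ml libraries also lay above the 20 ng/ml libraries.

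The counts behind LGALS9 were few in the controls, at 66 and 96 in A and 66 and 36 in D, against 681 to 1157 in the 4 libraries at 200 ng/ml. Averaged over the line sets, LGALS9 was 17.7-fold higher at 200 ng/ml (log2 fold change 4.14 ± 0.17 SE, n = 4 against 4, edgeR adjusted p = 2.26e-07), and this was rank 56 of the 19944 genes tested by fold. At 20 ng/ml it was 12.7-fold higher (3.67 ± 0.16, adjusted p = 6.4e-07). Between 200 and 20 ng/ml the log2 difference was 0.47 ± 0.14, which did not pass after adjustment (edgeR adjusted p = 0.342, unadjusted 0.00725).

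**Figure D1:**
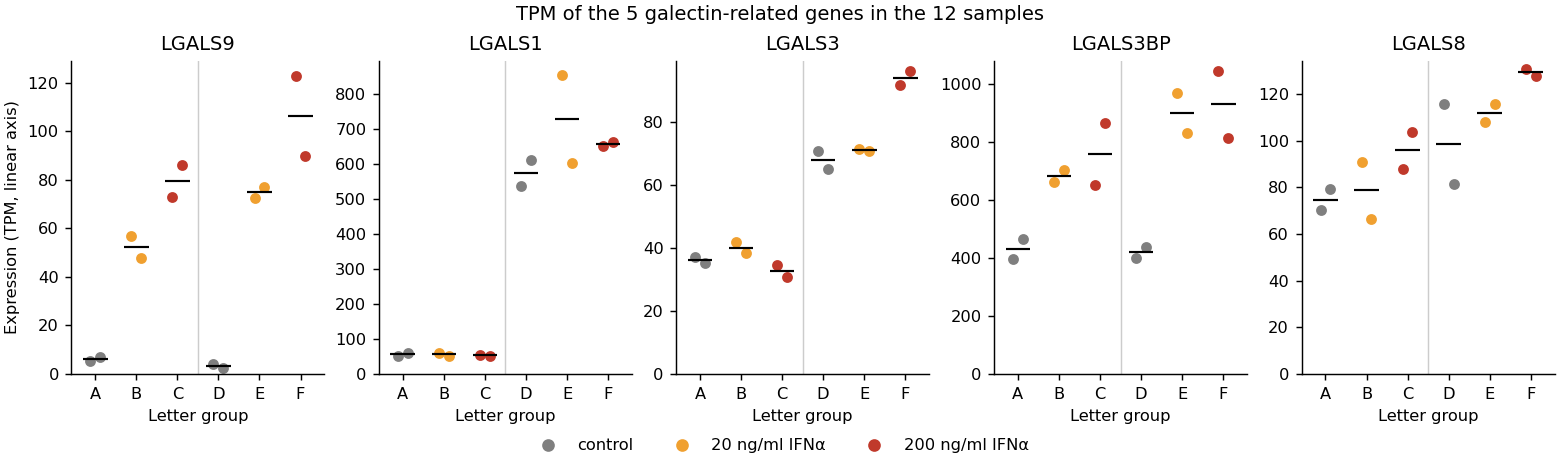
Each panel plots TPM on a linear axis that starts at 0 for 1 gene, with a dot for each of the 12 samples by letter group and a black line at the mean of the 2 replicates. LGALS9 rose from 2.35 to 7.02 TPM in the controls to 72.9 to 123 TPM at 200 ng/ml, and LGALS1 separated the line sets rather than the doses.

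LGALS3BP encodes a heavily glycosylated secreted protein that binds galectin-3 and other galectins. It lies on chromosome 17, minus strand, from 78971238 to 78980109. Its level was 395 and 465 TPM in A, 662 and 703 TPM in B and 651 and 863 TPM in C. In the other line set it was 400.0 and 437 TPM in D, 969 and 829 TPM in E and 1045 and 814 TPM in F. All 8 treated libraries lay above all 4 controls, and by TPM the 2 doses overlapped in both line sets. By counts scaled to library size (CPM), B at 551 and 579 lay below C at 612 and 748, while E and F still overlapped. LGALS3BP was 2.04-fold higher at 200 ng/ml (log2 fold change 1.03 ± 0.08, edgeR adjusted p = 4.36e-05) and 1.78-fold higher at 20 ng/ml (0.83 ± 0.08, adjusted p = 0.000269). The difference between the doses was 0.20 ± 0.08 on the log2 scale (edgeR adjusted p = 0.491). LGALS3BP-204, annotated as a target of nonsense-mediated decay, was at 228 and 223 TPM in A and 229.5 and 197 TPM in D. It was at 443 and 567 TPM in C and 464 and 432 TPM in F. LGALS3BP-201, the coding form of 585 codons, was at 4.8 and 7.05 TPM in A and 15.2 and 7.03 TPM in D. In C it was at 32.1 and 22.4 TPM and in F at 11.6 and 67.1 TPM. How far the level of the gene reflects coding RNA was not tested.

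LGALS1 encodes galectin-1, a homodimeric galectin, and lies on chromosome 22, plus strand, from 37675608 to 37679806. It was between 51.9 and 59.9 TPM in all 6 libraries of A-C, and between 536 and 853 TPM in all 6 libraries of D-F. In the order A, B and C its values were 51.9, 59.3, 59.9, 52.3, 52.9 and 52.3 TPM. In the order D, E and F they were 536, 611, 853, 602, 649.8 and 663 TPM. The doses overlapped in A-C, and in D-F the F libraries lay above D but within the range of E. The log2 fold change was 0.02 ± 0.11 at 200 ng/ml (edgeR adjusted p = 0.983) and 0.14 ± 0.11 at 20 ng/ml (adjusted p = 0.618).

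LGALS3 encodes galectin-3, which has a long N-terminal tail that lets it form oligomers, and lies on chromosome 14, plus strand, from 55124110 to 55145413. Its values were 37.0 and 35.2 TPM in A, 41.7 and 38.4 TPM in B and 34.4 and 30.8 TPM in C. They were 70.7 and 65.1 TPM in D, 71.4 and 70.6 TPM in E and 91.7 and 95.9 TPM in F. By TPM the libraries at 200 ng/ml thus lay below the controls in one line set and above them in the other. On estimated counts the log2 fold change at 200 ng/ml was 0.20 ± 0.11 in A-C and 0.09 ± 0.11 in D-F, and neither passed (edgeR adjusted p = 0.355 and 0.758).

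The TPM of LGALS3 moved with how its counts were divided between 2 overlapping transcripts. LGALS3-201, the coding transcript of 250 codons, was at 23.6 and 15.9 TPM in A and at 0.72 and 0.0 TPM in C. The retained-intron transcript LGALS3-207 was at 13.3 and 16.9 TPM in A and at 33.5 and 30.5 TPM in C. In the other line set LGALS3-201 was at 32.1 and 39.7 TPM in D and at 86.5 and 85.1 TPM in F, and LGALS3-207 fell from 36.2 and 25.2 TPM to 3.33 and 3.54 TPM. The 2 transcripts therefore moved in opposite directions in the 2 line sets while the count of the gene did not pass in either. Of the 3 LGALS3 transcripts tested 0 passed at 200 ng/ml averaged over the line sets, beside 453 of all 75876 transcripts tested. Opposite moves cancel in that average, so it cannot decide on them. In the difference between the responses of D-F and A-C at 200 ng/ml, 0 of the 3 passed with edgeR. The share of all transcripts that passed there was not counted. On simulated transcripts edgeR recovered no change, so this test cannot decide on them either.

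LGALS8 encodes galectin-8, which recruits the autophagy receptor CALCOCO2 to broken endosomes, and lies on chromosome 1, plus strand, from 236518000 to 236552981. Its values were 70.3 and 79.3 TPM in A, 91.1 and 66.6 TPM in B and 88.1 and 104 TPM in C. They were 116 and 81.4 TPM in D, 108 and 116 TPM in E and 131 and 128 TPM in F. In both line sets the libraries at 200 ng/ml lay above the controls by TPM. Counts scaled to library size (CPM) put C1 below both A libraries, at 73.0 against 93.2 and 99.5, and C2 above them at 129. The log2 fold change was 0.22 ± 0.17 at 200 ng/ml (edgeR adjusted p = 0.479) and -0.19 ± 0.17 at 20 ng/ml (adjusted p = 0.662).

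Of the 5 genes, 2 were higher at 200 ng/ml, LGALS9 and LGALS3BP, and 0 were lower, beside 4.98% of all 19944 genes tested that were higher and 4.57% that were lower. The same 2 were higher at 20 ng/ml, beside 2.33% of all genes. Both doses were set against the same control samples, so the 2 comparisons are not independent. No member passed between 200 and 20 ng/ml with edgeR, where 0.135% of all genes did. The count at an unadjusted p under 0.05 with edgeR in that comparison was 3, LGALS9, LGALS3BP and LGALS8, beside 9.26% of all genes. With DESeq2 1 member passed after adjustment, LGALS9 (DESeq2 adjusted p = 0.0355), and the share of all genes that did so was not counted. The same 2 genes were higher at 200 ng/ml within A-C, beside 3.58% of all genes, and within D-F, beside 3.44%.

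**Figure D2:**
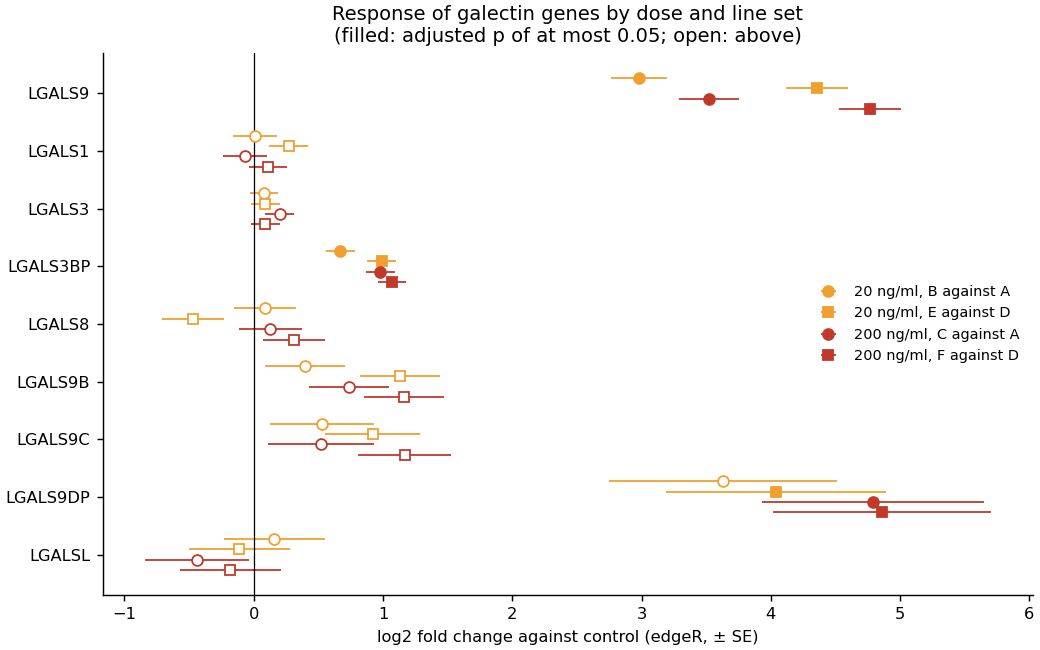
The log2 fold change against control (edgeR, bars ± SE) is plotted for the 5 genes and 4 relatives, with colours for dose, circles for A-C, squares for D-F, and filled symbols for an adjusted p of at most 0.05. LGALS9 lies between 2.98 and 4.77, LGALS3BP between 0.67 and 1.07, and every symbol of LGALS1, LGALS3 and LGALS8 is open.

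The response of LGALS9 was larger in D-F than in A-C by the point estimates. It was 11.5-fold higher in C than in A (log2 fold change 3.52 ± 0.23) and 27.3-fold higher in F than in D (4.77 ± 0.24). The difference between these responses was 1.25 ± 0.31 on the log2 scale and did not pass with edgeR (adjusted p = 0.0818, unadjusted 0.00287). It passed with DESeq2 (1.23, adjusted p = 0.00356) and with edgeR without library D1 (1.76, adjusted p = 0.0221). At 20 ng/ml the difference was 1.38 ± 0.31 (edgeR adjusted p = 0.129). With edgeR 0 of the 5 genes passed this test at 200 ng/ml, beside 1.88% of all genes, and 0 at 20 ng/ml, beside 0.371%. LGALS9 was the member with an unadjusted p under 0.05 at either dose, so the count was 1 at each, beside 17.7% of all genes at 200 ng/ml and 10.5% at 20 ng/ml.

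Before treatment 3 of the 5 genes differed between the line sets, beside 46.4% of all genes tested. LGALS1 was 9.4-fold higher in D than in A (log2 fold change 3.23 ± 0.17, edgeR adjusted p = 7.9e-07). LGALS3 was 1.75-fold higher in D (0.81 ± 0.11, adjusted p = 0.000298). LGALS9 was lower in D (-0.79 ± 0.25, adjusted p = 0.0251), but this call was lost without A2 (-0.67, edgeR adjusted p = 0.128) and without D2 (-0.40, adjusted p = 0.128). It also missed when the fit held the 4 control samples alone (-0.78, adjusted p = 0.133). LGALS3BP differed by -0.17 ± 0.11 and LGALS8 by 0.31 ± 0.24, and neither passed. In the fit of the 4 control samples alone LGALS8 did pass (0.31, edgeR adjusted p = 0.0415). The squamous markers given above moved with the same split of the samples, and their part in these differences was not tested.

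TPM is scaled by length and allows levels of different genes to be set side by side. In A the order was LGALS3BP, LGALS8, LGALS1, LGALS3 and LGALS9, with mean levels of 429.8, 74.8, 55.6, 36.1 and 6.1 TPM and no overlap between neighbours. In C LGALS9, at a mean of 79.6 TPM, stood between LGALS1 and LGALS8, above LGALS1 at 52.6 TPM and below LGALS8 at 96.2 TPM, again with no overlap. In B its replicates overlapped those of LGALS1. In D LGALS1 led at 573 TPM, followed by LGALS3BP at 419 TPM, LGALS8 at 98.9 TPM, LGALS3 at 67.9 TPM and LGALS9 at 3.28 TPM. In F LGALS9, at 106 TPM, overlapped LGALS3 at 93.8 TPM, while in E it lay just above LGALS3 without overlap. The TPM of LGALS3 moved with the division of its counts between transcripts, as shown above. Its CPM was 60.2 and 54.6 in D and 60.8 and 62.0 in F, so the place of LGALS9 beside LGALS3 is uncertain.

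Within the summed TPM of all galectin genes, which leaves out LGALS3BP because it is not a lectin of this family, the share of LGALS9 was 2.97% and 3.65% in A and 0.569% and 0.305% in D. At 20 ng/ml it was 21.8% and 21.9% in B and 6.45% and 8.7% in E. At 200 ng/ml it was 27.8% and 30% in C and 12% and 9.0% in F. The mean over the 4 samples was 1.87% in controls and 19.7% at 200 ng/ml, a difference of 17.9 percentage points (exact permutation test within line sets, two-sided, p = 0.0556, the smallest that 36 arrangements allow). The share at 200 ng/ml was also 5.01 points above that at 20 ng/ml (exact permutation test, p = 0.0556). These sizes depend on the sum used. Within the summed TPM of the 5 genes followed here, LGALS3BP included, the share went from 0.646% in controls to 6.68% at 200 ng/ml, a difference of 6.04 points, and stood 1.79 points above that at 20 ng/ml. The share of LGALS1 was 53.0% in controls and 42.1% at 200 ng/ml (exact permutation test, p = 0.0556). Shares of 1 sum are not independent, so this fall is no separate result beside the rise of LGALS9. LGALS1 itself did not pass (log2 fold change 0.02 ± 0.11, edgeR adjusted p = 0.983). In D-F the share of LGALS1 was between 63.7% and 79.1% in every library.

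**Figure D3:**
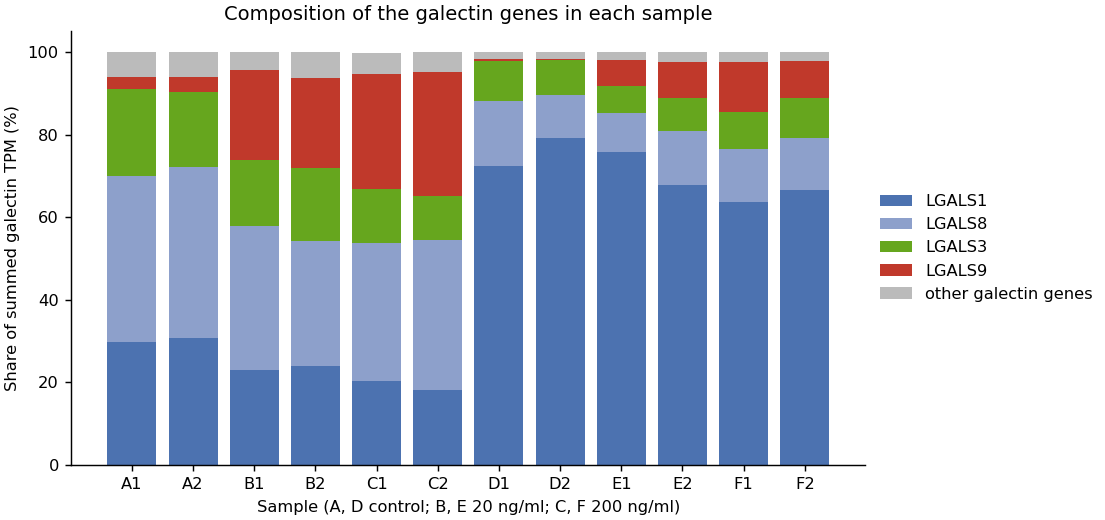
Stacked bars give each galectin gene's share (%) of the summed galectin TPM in each of the 12 samples. LGALS9 takes 0.305% to 3.65% in controls, 27.8% and 30% in C, and 12% and 9.0% in F, where LGALS1 takes 63.7% and 66.5%.

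Of the 13 other galectin genes, 8 had 0 counts in every library, which allows at most 3 counts in each: LGALS2, LGALS7, LGALS12, LGALS13, LGALS14, LGALS16, CLC and GRIFIN. LGALS4 and LGALS7B had at most 4 counts in a library. LGALSL, which encodes a galectin-like protein, was between 6.07 and 8.47 TPM in all 12 libraries, with a log2 fold change of -0.31 ± 0.28 at 200 ng/ml (edgeR adjusted p = 0.559). Of the 3 other galectin genes tested, 1 was higher at 200 ng/ml, LGALS9B, beside 4.98% of all genes. Their median log2 fold change was 0.85 beside -0.01 over all genes. This median is set by 2 near copies of LGALS9, LGALS9B (0.95) and LGALS9C (0.85), while LGALSL was below 0.

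LGALS9B and LGALS9C are near copies of LGALS9 on the same chromosome. LGALS9B was at 2.78 and 2.58 TPM in A, 4.1 and 4.78 TPM in C, 3.29 and 2.74 TPM in D and 7.37 and 4.42 TPM in F. It was 1.93-fold higher at 200 ng/ml (log2 fold change 0.95 ± 0.22, edgeR adjusted p = 0.0258). LGALS9C was at 0.586 and 1.69 TPM in A and 1.99 and 1.44 TPM in C, which overlapped, and at 2.21 and 3.56 TPM in D and 10.2 and 9.69 TPM in F, which did not. Its log2 fold change was 0.85 ± 0.27 (edgeR adjusted p = 0.0912). Both were well under the 4.14 of LGALS9.

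The pseudogene LGALS9DP, noticed after its values were seen, lies on chromosome 17 from 27746132 to 27754954, downstream of LGALS9 on the same strand. It had 0 and 6 counts in A and 7 and 0 in D, against 56 and 70 in C and 88 and 81 in F. The increase at 200 ng/ml was 4.82 ± 0.60 on the log2 scale (edgeR adjusted p = 0.00106). With so few control counts LGALS9DP passed the filter only through treated libraries and could hardly come out lower. Its p-value is therefore not independent support for a rise. Of all stretches of 75 bases in the annotated LGALS9DP transcript, 24.8% were also in an LGALS9 transcript, and 12.5% of those of 150 bases were. In the other direction, 4.72% of the LGALS9 stretches of 75 bases were in one of the 3 copies. Reads from shared stretches could be assigned to either gene, so the values of the 3 copies are uncertain, and the part of such reads in them was not tested.

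The transcripts of LGALS9 differ in the linker between the recognition domains and in the C-terminal domain. The annotation gives 3 transcripts with a complete coding sequence: LGALS9-203 with 355 codons, LGALS9-201 with 323 and LGALS9-202 with 246. LGALS9-203 has an exon of 96 bases, or 32 codons of the linker, that LGALS9-201 lacks, on chromosome 17 from 27643525 to 27643620. It is shown because these letters separate the long form from the medium one.
Linker exon of LGALS9-203, plus strand: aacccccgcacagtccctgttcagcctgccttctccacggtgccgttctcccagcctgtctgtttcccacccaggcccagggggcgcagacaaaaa
LGALS9-202 lacks this exon and also the exon of 163 bases from 27647270 to 27647432. The other 13 transcripts were 6 retained-intron forms, 2 annotated as targets of nonsense-mediated decay, 4 coding fragments and 1 processed transcript.

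Each of the 3 complete forms was low in controls and present in every treated library. LGALS9-203 was at 0.22 and 0.0 TPM in A, 3.14 and 3.65 TPM in C, 0.0 and 0.9 TPM in D and 9.22 and 9.35 TPM in F. LGALS9-201 was at 1.07 and 0.54 TPM in A, 3.28 and 5.48 TPM in C, 1.46 and 0.0 TPM in D and 6.16 and 8.41 TPM in F. LGALS9-202 was at 0.25 and 0.0 TPM in A, 14.7 and 9.76 TPM in C, 0.0 in both D libraries and 20.9 and 5.51 TPM in F. For LGALS9-202, the form without both exons, F was at least 51.1-fold higher than D when each D library was set to a floor of 3 counts. This bound is a mean of 2 unlike libraries, F1 with 190 counts and F2 with 52, and it was 80.7-fold from F1 alone and 21.5-fold from F2 alone.

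Together the 3 complete forms summed to 1.54 and 0.54 TPM in A, 20.5 and 13.9 TPM in B, 21.1 and 18.9 TPM in C, 1.46 and 0.9 TPM in D, 20.5 and 26.4 TPM in E and 36.3 and 23.3 TPM in F. Every treated library therefore lay above every control for the coding forms alone. They held 21.9% to 36.1% of LGALS9 TPM in the treated libraries. The 6 retained-intron forms held 29% to 53.5% of it there and rose from 1.45 to 5.16 TPM in controls to between 16.5 and 48.0 TPM. The RNA was total RNA, and how far these estimates reflect unspliced RNA was not tested.

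LGALS9-205, a decay target, had 0 counts in all 4 controls and 108, 96, 115 and 116 counts in the libraries at 200 ng/ml. Against a floor of 3 counts in each control library it was at least 43.1-fold higher in C and at least 48.4-fold higher in F. At the transcript level 4 of the 12 LGALS9 transcripts tested were higher at 200 ng/ml, LGALS9-202, LGALS9-205, LGALS9-211 and LGALS9-215, beside 0.372% of the 75876 transcripts tested. Their edgeR adjusted p-values were 0.0448, 0.00199, 0.0165 and 0.0061, and the estimate was above 0 for each of the 12. LGALS9-205, at 0 counts in every control, and LGALS9-202, at 3 counts in A1 and 0 in the other controls, passed the filter only through treated libraries. LGALS9-211 had 0 counts in both A libraries and 7 and 6 in D. LGALS9-215 had 9 and 13 counts in A and 0 in both D libraries. These 2 also had too few control counts to pass the filter without the treated libraries. Transcripts of this kind could hardly come out lower, so their p-values and the count of 4 are not independent support for a rise. The number fell to 2 when any of A2, B1, B2, D2, F1 or F2 was left out and when the fit held only the controls and the 200 ng/ml libraries, and it was 9 with DESeq2. LGALS9-215, with a retained intron, was at 1.62 and 1.74 TPM in A, 15.8 and 28.4 TPM in C, 0.0 in both D libraries and 5.6 and 9.14 TPM in F.

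**Figure D4:**
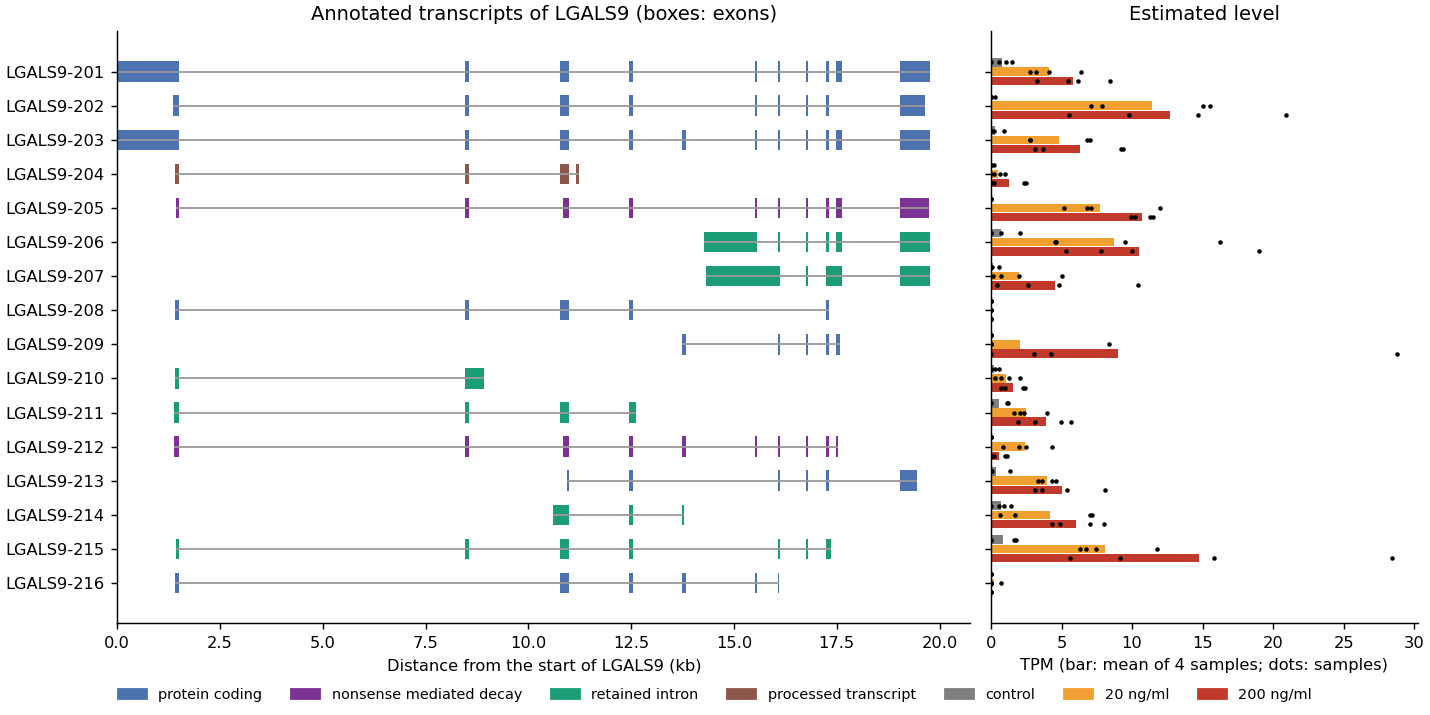
The left panel draws the exons of the 16 LGALS9 transcripts by distance from the start of the gene (kb), coloured by annotated type, and the right panel their TPM, with bars for the mean of 4 samples per dose and dots for samples. LGALS9-205 is at 0 in the controls and between 9.93 and 11.5 TPM at 200 ng/ml, and dots of LGALS9-202 spread from 5.51 to 20.9 TPM.

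Shares of LGALS9 TPM were tested for the 9 transcripts with a mean share of at least 5% and for 2 sums, by the exact permutation test within line sets with Benjamini-Hochberg adjustment over these 11. None reached 0.05, since 36 arrangements allow no p below 0.0556 before adjustment. The share of LGALS9-202 was 1.21% in controls and 13.7% at 200 ng/ml (exact permutation p = 0.0556, adjusted 0.204), and that of LGALS9-205 was 0.0% and 11.9% (exact permutation p = 0.0556, adjusted 0.204). The retained-intron sum was 66.4% and 45.9% of TPM (exact permutation p = 0.0556, adjusted 0.204), but 46.1% and 40.9% when estimated counts were summed in place of TPM (exact permutation p = 0.722). The complete coding sum was 27.6% and 26.6% of TPM (exact permutation p = 0.944) and 50.5% and 40.5% of estimated counts (exact permutation p = 0.444). The control shares rest on 36 to 96 counts divided over 16 transcripts, so single transcripts were often at 0.0% there.
The other 7 transcripts tested for share differed by between -14.5 and 3.29 percentage points, with exact permutation p-values of 0.333 to 1.0.

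Likeness to LGALS9 across the 12 samples was measured by Pearson's r of log2(TPM + 1) among 12826 other genes with a mean of at least 5 TPM. Among the nearest were IFI44 (r = 0.995), OAS1 (0.994), PLSCR1 (0.994) and RSAD2 (0.993), which are known interferon-stimulated genes. RSAD2, or viperin, went from 2.65 to 4.71 TPM in controls to 103 to 148 TPM at 200 ng/ml. For LGALS3BP the nearest were SMCR8 (0.970), PATL1 (0.964), IFIT5 (0.960), TAP1 (0.956) and GFOD1 (0.955). TAP1, a subunit of the peptide transporter of antigen presentation, had a log2 fold change of 1.51 at 200 ng/ml. LGALS9 and LGALS3BP correlated at 0.940, and LGALS9 correlated at 0.046 with LGALS1, 0.140 with LGALS3 and 0.478 with LGALS8. These values describe 12 samples that share 3 doses and 2 line sets.

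Lists of genes that work with galectins were counted beside the members. Of 7 receptors and partners of galectin-9, 6 were tested and 0 passed at 200 ng/ml (edgeR), with a median log2 fold change of 0.15 beside -0.01 over all genes, and 2 had an unadjusted p under 0.05, TNFRSF9 and VSIR, beside 23.9% of all genes. The genes of this list were named after their values were seen. VSIR, the checkpoint protein VISTA, was at 7.41 and 10.8 TPM in A and 5.19 and 4.27 TPM in C. In the other line set it was at 21.4 and 19.9 TPM in D and 20.4 and 21.1 TPM in F. TNFRSF9, a costimulatory receptor, was at 7.65 and 8.9 TPM in A (304 and 400 counts) and 5.1 and 11 TPM in C (176 and 185 counts). It was near the floor in D-F, with 0 counts in both D libraries and 0 and 6 in F, so its change there rests on F2 alone. CD44, a hyaluronan receptor, was at 753 to 1264 TPM at 200 ng/ml and 826 to 1246 TPM in controls. HAVCR2, which encodes TIM-3, had 6 counts in C2, 4 in D1, 2 in D2 and 0 in the other libraries.

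Of 11 genes that act with galectin-8 and galectin-3 at damaged endolysosomes, all were tested, 2 were higher and 1 was lower at 200 ng/ml (median 0.05), beside 4.98% of all genes higher and 4.57% lower. OPTN, an autophagy receptor, rose 1.47-fold (log2 0.56 ± 0.09, edgeR adjusted p = 0.00608). ATG16L1, which places the LC3 conjugation machinery on membranes, rose 1.37-fold (0.45 ± 0.07, adjusted p = 0.00302). TFRC, the transferrin receptor, fell by 0.42 ± 0.07 on the log2 scale (edgeR adjusted p = 0.0041).

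Of 16 cell surface partners of galectin-1, galectin-3 and LGALS3BP, 13 were tested and 1 passed, FN1, which encodes fibronectin and rose 1.29-fold (log2 0.37 ± 0.07, edgeR adjusted p = 0.0119). The median of the 13 was -0.05, and 4.98% of all genes were higher, so a count of 1 is near the background. Within A-C 0 of the 13 passed and within D-F 1 was higher, beside 3.58% and 3.44% of all genes higher. Of 29 enzymes that build or cap the glycans bound by galectins, 27 were tested, 2 were higher and 1 was lower (median 0.04). Of all genes 4.98% were higher and 4.57% lower, so these counts are near the background. Within A-C 1 of the 27 was higher and 3 were lower, beside 3.58% and 3.6% of all genes. Within D-F 0 of the 27 passed, beside 3.44% of all genes higher and 2.39% lower. The changes below are averages over the line sets. C1GALT1, which makes the core 1 O-glycan, rose 1.55-fold from 15.0 to 22.5 TPM in controls to 24.4 to 32.8 TPM (log2 0.64 ± 0.10, edgeR adjusted p = 0.00378). GCNT2, which branches poly-N-acetyllactosamine chains, rose 1.89-fold (0.92 ± 0.23, adjusted p = 0.0341). B4GALT2, a galactosyltransferase, fell by 0.26 ± 0.07 on the log2 scale (edgeR adjusted p = 0.0479).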

How the data were processed

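Total RNA was sequenced in 12 samples. The submitters' processing notes name Trimmomatic 0.36, HISAT2 2.1.0, StringTie 1.3.3b and GRCh38.p10, and the annotation release is not given in the sources used here. The authors deposited an estimated count per gene and transcript, as whole numbers that are not scaled, beside TPM and FPKM values scaled for length and depth. FPKM was used for no result. Doses were read from the titles and the series' design text.

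Estimated counts were tested with edgeR 4.0.16 (quasi-likelihood, TMM factors, filterByExpr, 6 letter groups, Benjamini-Hochberg over all features, passing at an adjusted p of at most 0.05). Line set contrasts came from the same fit. Shares were tested by exact permutation of doses within line sets. DESeq2 1.42.0 and limma 3.58.1 on log2(TPM + 0.1) or log2(TPM + 1) were alternatives, with R 4.3.3. Exon positions and sequences came from GENCODE and RefSeq. The edgeR and DESeq2 steps were tested on simulated data. On simulated transcripts edgeR recovered none of the changes and most DESeq2 calls were false, so transcript calls are uncertain.

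The members and gene lists were chosen with earlier results of these data known. Named genes were the 5 members, all LGALS9 transcripts, the other galectin genes, up to 4 passing genes of largest change per list, and the 5 genes most like LGALS9 and LGALS3BP, of which 1 is not reported here. Cell type markers, the partners of galectin-9 and LGALS9DP were named outside this rule, after their values were seen. From the list of interferon-stimulated genes only the count and median are given.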

Additional observations from a re-analysis of the deposited data

Results flagged for a closer look

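In groups of 4 samples of 1 dose, a sample that stood far from the other 3 by Dixon's criterion was looked for in 45 groups, and 6 were found. The criterion flags about 1 in 20 groups of independent values from 1 normal population. These groups mix 2 line sets, the shares of 1 gene depend on each other, and control shares rest on few counts. The number found therefore cannot be set against that rate. All 6 were shares of single transcripts in LGALS9 TPM, and none was a level of a gene. In controls, LGALS9-202 was 4.84% in A1 and 0.0% in the other 3, LGALS9-203 was 38.3% in D2 and at most 4.26% in the others, and LGALS9-213 was 18.7% in A2 and at most 1.55% in the others. At 20 ng/ml, LGALS9-215 was 24.6% in B2 and 9.25% to 11.1% in the others. At 200 ng/ml, LGALS9-206 was 21.1% in F2 and 7.25% to 9.07% in the others, and LGALS9-213 was 9.35% in C2 and 4.04% to 4.42% in the others. D2, the library behind the largest of these shares, had 36 counts for LGALS9.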

How the results depend on the processing

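LGALS9 and LGALS3BP passed under all 21 alternatives at both doses. For LGALS9 the log2 fold change ranged from 3.95 to 4.40 at 200 ng/ml and from 3.48 to 3.94 at 20 ng/ml, and for LGALS3BP from 0.95 to 1.09 and from 0.78 to 0.89. With DESeq2, 1 member passed between the doses (LGALS9, 0.48, adjusted p = 0.0355; range over alternatives 0.0355 to 0.631) and 1 in the difference between line sets. Leaving out 1 library gave 0 to 1 members there and 2 to 4 LGALS9 transcripts. These numbered 9 with DESeq2, 2 with only the compared doses and 0 with the replicate block. Replicate numbers did not pair the samples (correlation of deviations -0.043 to 0.056 over 6 pairs). The replicate block left 2 members at both doses, lost LGALS9 between the controls (-0.67, adjusted p = 0.0918) and so gave 2 in place of 3 there.

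The sign turned only in values that did not pass. LGALS1 at 200 ng/ml was -0.01 with library size alone, with no filter and with upper-quartile factors, and -0.04 to 0.08 without 1 library. LGALS8 at 200 ng/ml was -0.02 (without C2) to 0.39 (without C1), and 0.13 at 20 ng/ml with either limma fit. Between line sets, LGALS3 was 0.61 with either limma fit. Without 1 library it was -0.2 to 0.0, LGALS3BP -0.05 to 0.25 and LGALS8 -0.17 to 0.66, the extremes being without C1 and C2. Share differences of LGALS9-206 were -0.0267 from counts and -7.2 to 7.35 without 1 library, of LGALS9-203 -13.6 to 5.55, of LGALS9-213 -3.81 to 4.76 and of complete coding forms -6.56 to 4.48, against -10.1 from counts. Except where a value or construction above shows it, the cause was not tested. The share of LGALS9 in galectin TPM differed by 6.04 points with LGALS3BP in the sum and by up to 18.6 otherwise. Few counts in the controls limit the transcripts.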

Other observations

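The study's own oligonucleotides for LGALS9 are shown because they differ in which transcripts and near copies hold their letters. The forward and reverse PCR primers were each found in 11 of the 16 annotated LGALS9 transcripts.
LGALS9-F1: cccgaggagaggaagacaca
LGALS9-R1: tcccgttcaccatcaccttg
The forward primer was in 0 transcripts of LGALS9B, LGALS9C and LGALS9DP, and the reverse primer was in 4, 10 and 1 of them. Of 3 short interfering RNAs against galectin-9, number 1 was in 10 LGALS9 transcripts and in 1 transcript of LGALS9DP, and it was the only one of the 3 found in a near copy. Number 2 was in 8 LGALS9 transcripts, neither decay target among them, and number 3 in 11, both decay targets included.
Number 1: gacuucagaucacugucaa
Number 2: gguuugcugugaacuuuca
Number 3: gaggguacguggugugcaa
Only perfect matches were counted, on either strand.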
